A study of Mus musculus with 31 samples.

Results

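The genes described here make cholesterol, sense it, move it, store it and export it, together with a pair of fatty acid enzymes that share its regulators. Their 34 symbols were listed by name, each was matched to 1 Ensembl mouse identifier, and they are 34 of the 45706 identifiers counted in the deposited tables. They divide by role into 18 synthesis genes, 1 enzyme of the isoprenoid side branch, 5 genes of sterol sensing, 4 of uptake and intracellular transport, 1 of storage, 3 of efflux and 2 of fatty acid synthesis. The rule of choice is by name and role, and earlier results of these data were known when the list was made.

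Libraries were made from total RNA of cells sorted from the bone marrow of wild type C57BL/6 mice aged 10 weeks. Mice had received 1 mg of β-glucan, a polysaccharide of fungal cell walls, or the PBS vehicle into the peritoneum. Long-term hematopoietic stem cells (HSC) were taken on day 7 (3 β-glucan libraries and 4 PBS libraries) and on day 28 (4 and 4), and multipotent progenitors (MPP) were taken on day 28 (4 and 4). A further 4 β-glucan and 4 PBS libraries of HSC came from mice that were given 150 mg/kg of the cytotoxic drug 5-fluorouracil (5-FU) on day 7 after either injection and were sampled 14 days after the drug. The labels do not say whether each replicate is a separate mouse, so p-values measure the spread between libraries, which may be partly technical. The library titled MPP, PBS, day 28, replicate 1 carries an HSC cell type tag and was placed by its title.

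Cells build cholesterol from acetyl-CoA through mevalonate, squalene and lanosterol. When sterols in the endoplasmic reticulum run low, the escort protein SCAP carries the SREBP transcription factors to the Golgi for cleavage, and the freed factors raise transcription of the synthesis genes at sterol response elements, usually beside sites for other factors such as NF-Y. When sterols or their oxidised forms are plentiful, INSIG proteins hold SCAP back, and the liver X receptors (LXR) raise genes of efflux. In mice, cholesterol efflux is known for restraining the proliferation of hematopoietic stem and progenitor cells.

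Read totals lay between 19331663 and 39485556 per library (median 29751430). Levels are given as CPM, a gene's count relative to its library total, with totals scaled by TMM (the trimmed mean of M-values) within each of the 3 deposited tables, which hold day 7, day 28 and 5-FU libraries, so levels set across tables are not tested. A gene was called where edgeR's quasi-likelihood test gave a Benjamini-Hochberg adjusted p under 0.05 over all genes tested. The labelled cell types were set against marker lists. All 15 LT-HSC markers had reads in every group, but so had the markers of every other list, so this cannot tell cell types apart. In PBS mice, 10 of the 14 LT-HSC markers tested were lower in MPP than in HSC, while 6 of 8 progenitor markers were higher. LT-HSC markers averaged 0.161% (β-glucan) and 0.168% (PBS) of scaled counts in HSC on day 7. On day 28 these shares were 0.047% and 0.0588%, and the difference between days was not tested. Markers of mature cells were abundant as well: erythroid markers made up 2.44 to 21.9% and neutrophil markers 4.76 to 20.9% of scaled counts per library, although the cells were sorted. In the HSC day 28 table, β-glucan replicate 3 and PBS replicate 2 stood apart: their differences from the other libraries of their group, as chi-square per gene, were 29.8 to 36.6 and 32.2 to 50.3, against 10.1 to 14.3 and 11.9 to 22.1 among the others. After 5-FU, PBS replicate 4 stood apart in the same way, at 28.7 to 45.9 against 13.5 to 23.7 among the other libraries of its group, and had the highest neutrophil share of all libraries at 20.9%. Among the 3 β-glucan HSC libraries of day 7, replicates 1 and 2 differed by 43.2, and replicate 3 differed from these by 19.2 and 17.5. Neutrophil shares there were 7.78% in replicate 1, 12.4% in replicate 2 and 9.51% in replicate 3.

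Per kilobase of exon, members spanned from Npc2, the soluble lysosomal cholesterol carrier, at a mean of 112 CPM per kb over all 31 libraries, to Abca1, the exporter that loads apolipoprotein A-I, at 0.501 CPM per kb. By this pooled mean the exporter Abcg1 was next at 55.5 CPM per kb, followed by Ebp, the sterol isomerase late in synthesis, at 40.3 CPM per kb. The order of these differed between groups, and after 5-FU Ebp was above Abcg1, at 39.1 against 34.1 CPM per kb in β-glucan HSC and 39.2 against 33.3 CPM per kb in PBS HSC. Idi1, the isopentenyl diphosphate isomerase, had the lowest pooled mean among synthesis genes at 0.786 CPM per kb. Tm7sf2 was lower than Idi1 in HSC of PBS mice on day 7 and day 28 and in MPP of both treatments, and Fdps was lower in both day 7 groups. Ranges of neighbours in this order overlapped widely across libraries, as with Pmvk (11.9 to 33.3 CPM per kb) and Soat1 (10.7 to 23.2 CPM per kb). Counts of some members are less certain because they share sequence or bases with other genes: among Acat2's 50-base words 39.1% occur in other genes (including Acat3), among those of Fdft1 26.5%, of Fdps 26.2%, of Idi1 25.3% and of Scd1 4.56% (in other Scd genes), and 12.1% of the exon bases of Hmgcs1 are overlapped by the antisense gene Gm48342.

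On day 7, 6 cholesterol synthesis genes were higher in HSC from β-glucan mice than in HSC from PBS mice. All 34 members passed the filter on low counts, none of the 18 synthesis genes was called lower, and all 18 had a positive log2 fold change (median 0.34, range 0.06 for Lss to 0.72 for Tm7sf2). With voom, or with PBS replicate 1 or PBS replicate 3 left out, 17 of the 18 were positive. Over the whole table of 16403 genes, calls were made higher for 2.83% and lower for 3.88%, with a median log2 fold change of -0.006. The summed level of the 18 genes was 789.4 ± 19.0 CPM in β-glucan HSC (SD, n = 3) and 630.7 ± 8.82 CPM in PBS HSC (SD, n = 4). The called genes were in the mevalonate section (Hmgcs1 and Mvd), at squalene (Sqle) and in the conversion of lanosterol (Cyp51, Msmo1 and Sc5d). These are bulk libraries, in which fewer cells of a type and less RNA per cell cannot be told apart.

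Msmo1, the sterol C4-methyl oxidase (chr8:64718139-64733792 of mm10, minus strand), had 71.3, 77.9 and 78.3 CPM in β-glucan HSC, against 46.3, 49.5, 50.8 and 51.8 CPM in PBS HSC. Every β-glucan library lay above every PBS library (log2 fold change 0.61 ± 0.08 SE, adjusted p = 0.0013). Sc5d, the desaturase that acts late on the sterol ring (chr9:42254177-42264300, minus strand), had 54.4, 56.0 and 59.1 CPM in β-glucan HSC, against 37.1, 38.9, 41.1 and 43.8 CPM in PBS HSC. The groups were again separate (log2 fold change 0.49 ± 0.09 SE, adjusted p = 0.00702). The lanosterol demethylase Cyp51 (chr5:4081145-4104746, minus strand) had 45.5, 46.9 and 49.5 CPM in β-glucan HSC, against 29.4, 31.8, 31.9 and 38.8 CPM in PBS HSC, with no overlap (log2 fold change 0.52 ± 0.11 SE, adjusted p = 0.0156). The calls of Msmo1 and Sc5d held in all 9 alternative settings and with each of the 7 libraries left out.

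Earlier in the route, Hmgcs1, which makes HMG-CoA (chr13:119690462-119708086, plus strand), had 58.0, 59.8 and 65.6 CPM in β-glucan HSC, against 43.2, 44.0, 46.3 and 52.9 CPM in PBS HSC (log2 fold change 0.39 ± 0.10 SE, adjusted p = 0.0346). Mvd, the mevalonate diphosphate decarboxylase (chr8:122433596-122443422, minus strand), had 16.0, 16.6 and 20.6 CPM in β-glucan HSC, against 9.84, 10.0, 10.6 and 13.5 CPM in PBS HSC (log2 fold change 0.69 ± 0.16 SE, adjusted p = 0.0244). Sqle, the squalene epoxidase (chr15:59315077-59331192, plus strand), had 59.0, 61.5 and 63.7 CPM in β-glucan HSC, against 38.3, 47.7, 48.1 and 49.7 CPM in PBS HSC (log2 fold change 0.42 ± 0.10 SE, adjusted p = 0.0319). In each of the 3 genes the lowest β-glucan library exceeded the highest PBS library. Leaving out β-glucan replicate 2, β-glucan replicate 3 or PBS replicate 2 ended the calls of these 3 genes and of Cyp51, so that 3 members stayed called (Msmo1, Sc5d and Scd1) in each case, while the signs did not change. Genes called in all were then 559, 500 and 643, against 1102 with every library. Hmgcs1 kept its call with 1 of the 7 libraries left out in turn, Mvd with 2, Sqle with 3 and Cyp51 with 4, and Hmgcs1 and Sqle were not called on library totals without TMM. The 12 synthesis genes that were not called had log2 fold changes of 0.06 to 0.72, and Mvk and Pmvk, the pair of mevalonate kinases, came nearest among those with adjusted p of 0.0756 and 0.0647.

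**Figure D1:**
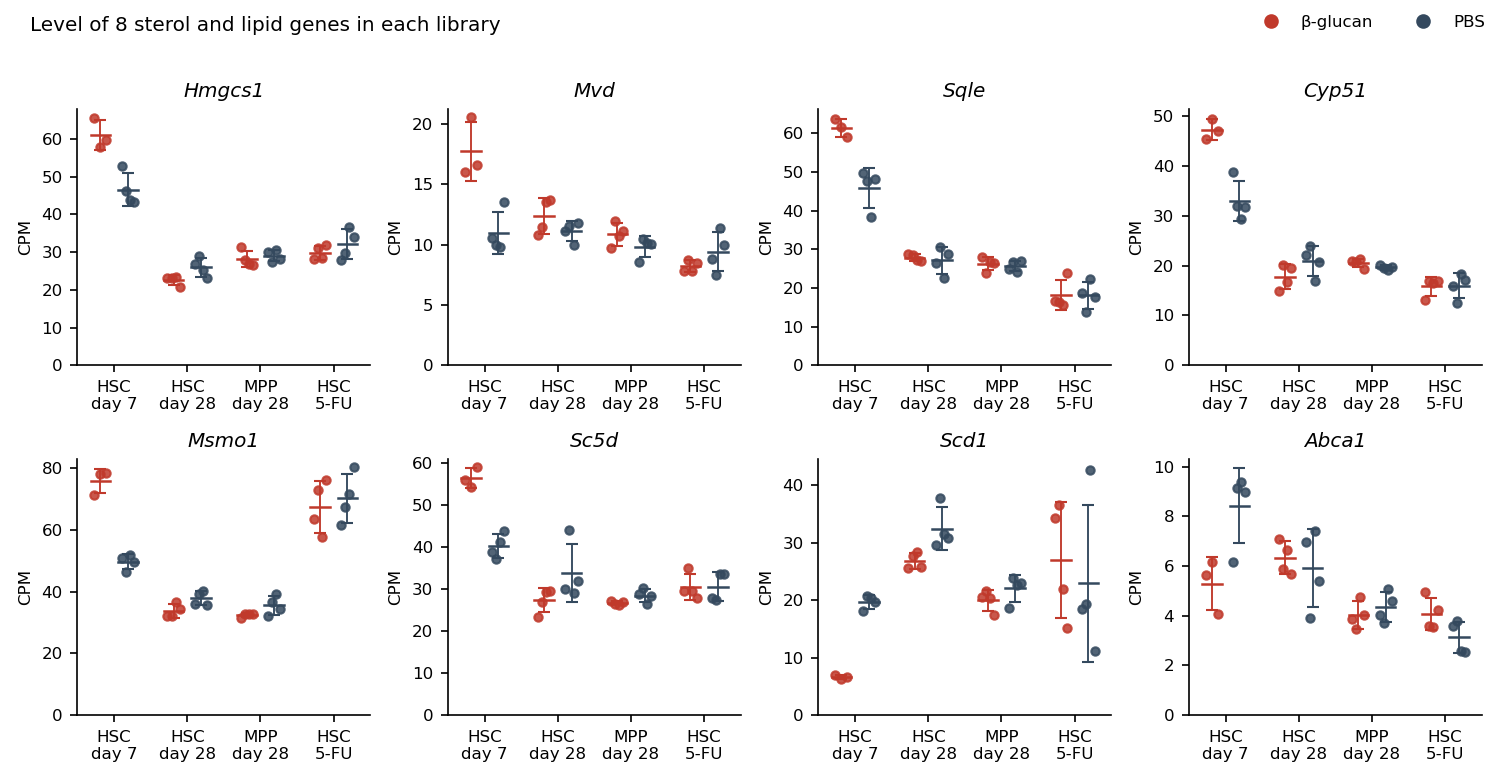
Level in CPM (y axis, from 0) of 6 synthesis genes called on day 7, of the desaturase Scd1 and of the exporter Abca1 in each library. Points are libraries, red for β-glucan and dark for PBS, with the mean and SD of each group. On day 7 the 6 synthesis genes were higher and Scd1 was lower in every β-glucan library than in every PBS library. Abca1 was not called and was added to the plot after its values were seen.

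Promoter sequence was available for 5 of the 6 called synthesis genes (none for Sqle). RefSeq promoter windows (GRCm38.p6, from 250 bases before to 50 bases after the annotated start) were found for 27 of the 34 members and 15 of the 18 synthesis genes. They were searched on both strands for a sterol response element spelled TCACNCCAC and for the NF-Y box CCAAT; no match of one overlapped a match of the other in the windows shown. Shown are Hmgcs1, the one synthesis gene with a match to the first, and the 3 called genes of smallest p, with NF-Y boxes and the sterol response element in capitals on the gene's own strand (a box on the other strand reads ATTGG).
Hmgcs1, chr13:119690101-119690400, plus strand: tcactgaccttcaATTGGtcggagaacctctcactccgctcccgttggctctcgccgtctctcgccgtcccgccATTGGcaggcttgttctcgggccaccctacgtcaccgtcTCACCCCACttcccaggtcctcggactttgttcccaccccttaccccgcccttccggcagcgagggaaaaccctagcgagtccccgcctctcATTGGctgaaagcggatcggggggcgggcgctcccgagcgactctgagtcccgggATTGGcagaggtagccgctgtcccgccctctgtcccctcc
Msmo1, chr8:64733529-64733828, minus strand: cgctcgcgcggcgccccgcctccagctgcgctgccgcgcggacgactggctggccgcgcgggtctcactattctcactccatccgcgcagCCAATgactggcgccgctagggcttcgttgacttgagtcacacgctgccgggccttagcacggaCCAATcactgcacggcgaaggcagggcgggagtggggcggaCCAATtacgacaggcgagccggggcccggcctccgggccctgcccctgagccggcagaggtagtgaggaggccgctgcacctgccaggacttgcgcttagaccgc
Sc5d, chr9:42264251-42264550, minus strand: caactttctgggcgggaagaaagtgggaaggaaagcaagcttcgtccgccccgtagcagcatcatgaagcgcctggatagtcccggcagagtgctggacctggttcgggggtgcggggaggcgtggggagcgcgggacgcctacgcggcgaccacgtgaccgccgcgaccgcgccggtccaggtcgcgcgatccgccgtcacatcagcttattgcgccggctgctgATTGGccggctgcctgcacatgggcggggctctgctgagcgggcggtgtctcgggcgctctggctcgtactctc
Cyp51, chr5:4104648-4104947, minus strand: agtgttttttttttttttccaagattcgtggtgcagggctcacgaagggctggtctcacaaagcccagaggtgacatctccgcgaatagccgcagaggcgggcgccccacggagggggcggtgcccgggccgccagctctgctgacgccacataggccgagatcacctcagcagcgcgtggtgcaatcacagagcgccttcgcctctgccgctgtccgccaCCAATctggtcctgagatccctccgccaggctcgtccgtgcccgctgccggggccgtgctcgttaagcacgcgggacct

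The Hmgcs1 window holds the sterol response element with its first base 137 bases before the start, and 4 NF-Y boxes. Msmo1 holds 3 NF-Y boxes, the nearest at 55 bases before the start, Sc5d holds 1 at 24 bases before it, and Cyp51 holds 1 at 29 bases before it. A match to the sterol response element was found in 1 of 15 synthesis genes, against 1.44% of all 27025 genes with such windows. An NF-Y box was found in 14 of the 15 synthesis genes (93.3%), against 41.1% of all genes, and Acat2 was the gene without one. Over all windows, counting each start on its own, the shares were 77.8% of 18 synthesis windows and 37.4% of 32851. A match describes these letters in this window only, and binding was not measured.

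**Figure D2:**
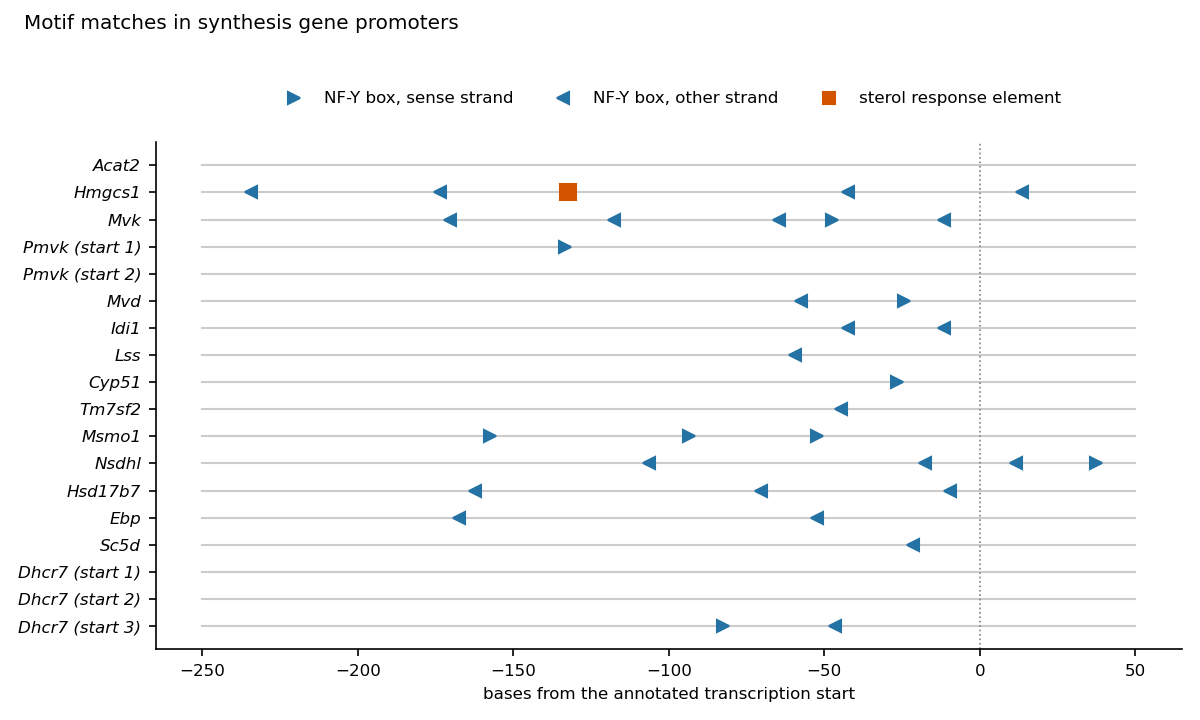
Position of motif matches in the RefSeq promoter windows of 15 synthesis genes, in bases from the annotated start (x axis), with 1 line per start. Triangles are NF-Y boxes, pointing right on the sense strand, and the square is the sterol response element in Hmgcs1. All matches in Mvd, Cyp51, Sc5d, Idi1 and Tm7sf2 lie within 60 bases before the start, and Idi1 and Tm7sf2 were not called on day 7. The only match in Lss, which was not called either, begins just beyond that, at base -62.

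Outside synthesis, 1 member was called on day 7. Scd1, the stearoyl-CoA desaturase that makes monounsaturated fatty acids and is raised by both SREBP and LXR (chr19:44394451-44407709, minus strand), had 6.23, 6.56 and 6.90 CPM in β-glucan HSC, against 18.1, 19.6, 20.4 and 20.8 CPM in PBS HSC. The β-glucan libraries were all far below the PBS libraries, at a fold of 0.333 (log2 fold change -1.59 ± 0.13 SE, adjusted p = 8.67e-05); the call held in all 9 settings and with each library left out. Of the members that were not called, those given by library in what follows were chosen after their values were seen. Fasn, the fatty acid synthase, had 21.1, 25.3 and 29.7 CPM in β-glucan HSC, against 22.8, 29.8, 31.3 and 40.3 CPM in PBS HSC, and the groups overlapped (log2 fold change -0.29 ± 0.18 SE, adjusted p = 0.415). Ggps1, which makes geranylgeranyl diphosphate for protein prenylation, differed by a log2 fold change of -0.045 ± 0.11 (SE).

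None of the 5 sterol sensing genes was called on day 7. Srebf2, which encodes the SREBP most active on synthesis genes, had 51.8, 56.9 and 58.5 CPM in β-glucan HSC, against 52.9, 62.3, 63.2 and 72.9 CPM in PBS HSC, and Insig1, a feedback target of the pathway, had 32.1, 32.6 and 40.7 CPM in β-glucan HSC, against 23.8, 28.7, 30.3 and 33.0 CPM in PBS HSC. Both overlapped between groups, with log2 fold changes of -0.18 ± 0.11 and 0.28 ± 0.13 (SE). Insig2, Srebf1 and Scap lay between 0.06 and 0.14 on that scale.

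Uptake, storage and efflux genes were not called either. Of all 34 members, 13 were higher in every β-glucan library than in every PBS library and 2 were lower in every one, where 8.74% and 10.2% of the 16403 genes tested were. Soat1, which esterifies cholesterol for storage, had 127, 135 and 180.1 CPM in β-glucan HSC, against 105, 111, 113 and 115 CPM in PBS HSC, and just missed the threshold (log2 fold change 0.41 ± 0.11 SE, adjusted p = 0.051). Npc2 had 454, 517 and 616 CPM in β-glucan HSC, against 379, 419, 442 and 442 CPM in PBS HSC (log2 fold change 0.33 ± 0.10 SE, adjusted p = 0.0894). Abca1 had 4.08, 5.65 and 6.15 CPM in β-glucan HSC, against 6.18, 9.0, 9.13 and 9.40 CPM in PBS HSC (log2 fold change -0.67 ± 0.21 SE, adjusted p = 0.0873). The groups did not overlap for these 3, higher in β-glucan for Soat1 and Npc2 and lower for Abca1, and DESeq2, which called 12 members, called all 3. DESeq2 called 1711 genes in all, against 1102 with edgeR. The remaining members of these roles, among them the endosomal exporter Npc1, the sterol carrier Stard4, Mylip, a ubiquitin ligase for lipoprotein receptors, Abcg1 and the LXR gene Nr1h2, had log2 fold changes of -0.26 to 0.24.

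**Figure D3:**
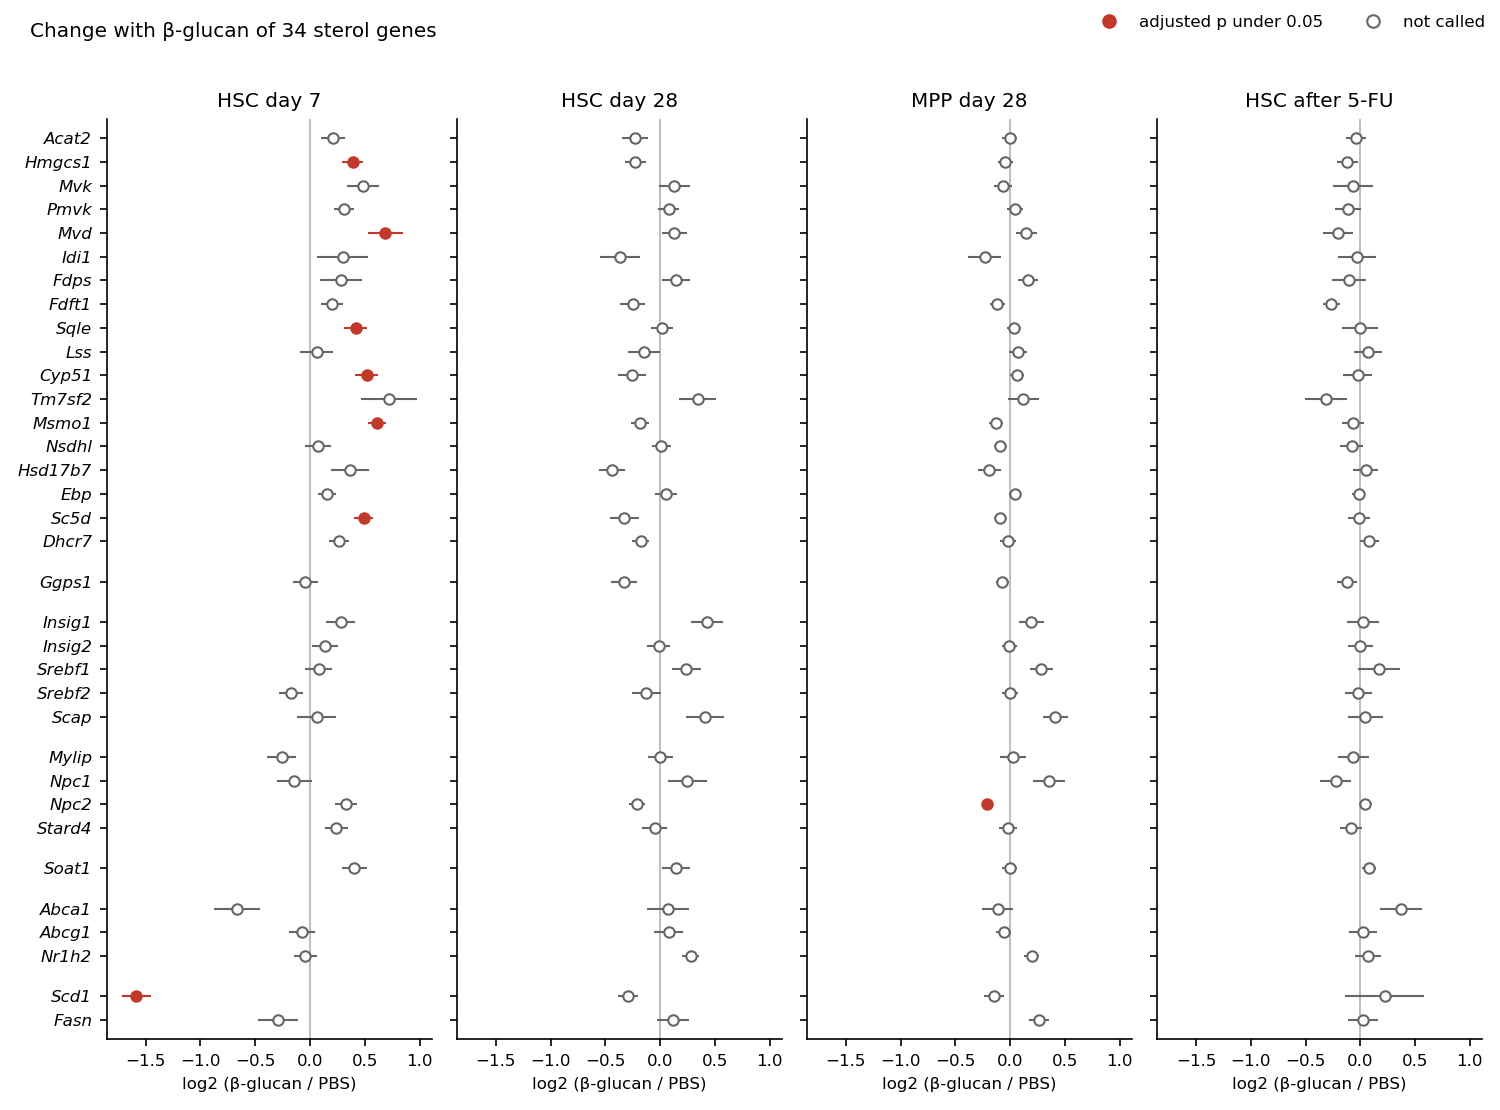
Log2 fold change with β-glucan (x axis, bars are SE) of the 34 members in the 4 settings, with rows grouped by role from synthesis at the top to fatty acid genes at the bottom. Filled points were called. The synthesis block lies to the right of 0 on day 7 and on both sides of 0 in HSC and MPP on day 28, and 3 of its 18 genes were above 0 after 5-FU.

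Of the other pathway genes listed, 50 were tested on day 7, and 2 were called higher and none lower. Lamp2, a lysosomal membrane protein that binds cholesterol, averaged 393.1 ± 52.8 CPM in β-glucan HSC and 284.9 ± 13.8 CPM in PBS HSC (SD, n = 3 and 4), and Tmem97, a partner of NPC1, averaged 50.4 ± 3.88 CPM in β-glucan HSC and 40.05 ± 1.33 CPM in PBS HSC. Their log2 fold changes were 0.46 and 0.33, with adjusted p of 0.012 and 0.0454 by edgeR. None of the 8 tested LXR target and efflux genes on the list and none of the 9 fatty acid synthesis genes was called.

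Markers of other cells moved with the same comparison. Erythroid markers summed to 2.44 to 3.09% of scaled counts in β-glucan HSC and 6.64 to 8.29% in PBS HSC, and all 15 were called lower. Neutrophil markers summed to 7.78 to 12.4% in β-glucan HSC and 5.48 to 6.31% in PBS HSC, with 10 of 14 called higher, and 13 of 14 B cell markers were called lower. Monocyte and macrophage markers summed to 0.814 to 1.30% in β-glucan HSC and 0.662 to 0.762% in PBS HSC, with 6 of 13 called higher, and of 8 progenitor markers Mpo was called higher and Cd34 and Kit lower. Progenitor markers summed to 0.665 to 1.01% in β-glucan HSC and 0.534 to 0.623% in PBS HSC. For T and NK cell markers the sums were 0.0626 to 0.0802% and 0.0514 to 0.0568%. Sums of megakaryocyte and of stromal and endothelial markers overlapped between the groups. LT-HSC markers summed to 0.145 to 0.192% in β-glucan HSC and 0.159 to 0.186% in PBS HSC. Proliferation markers summed to 0.319 to 0.338% in β-glucan HSC and 0.37 to 0.401% in PBS HSC, and 2 of 13 were called, both lower. No marker of these lists was at 0 in all libraries of a group. With the erythroid, neutrophil and B cell marker genes taken out of the totals, the same 7 members were called and the synthesis median was 0.339. That setting changes only the scaling, and the median of all genes moved by -0.001. It leaves the members' own counts as they were. The part of the cells that carry these markers in the members' own counts was not tested.

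**Figure D4:**
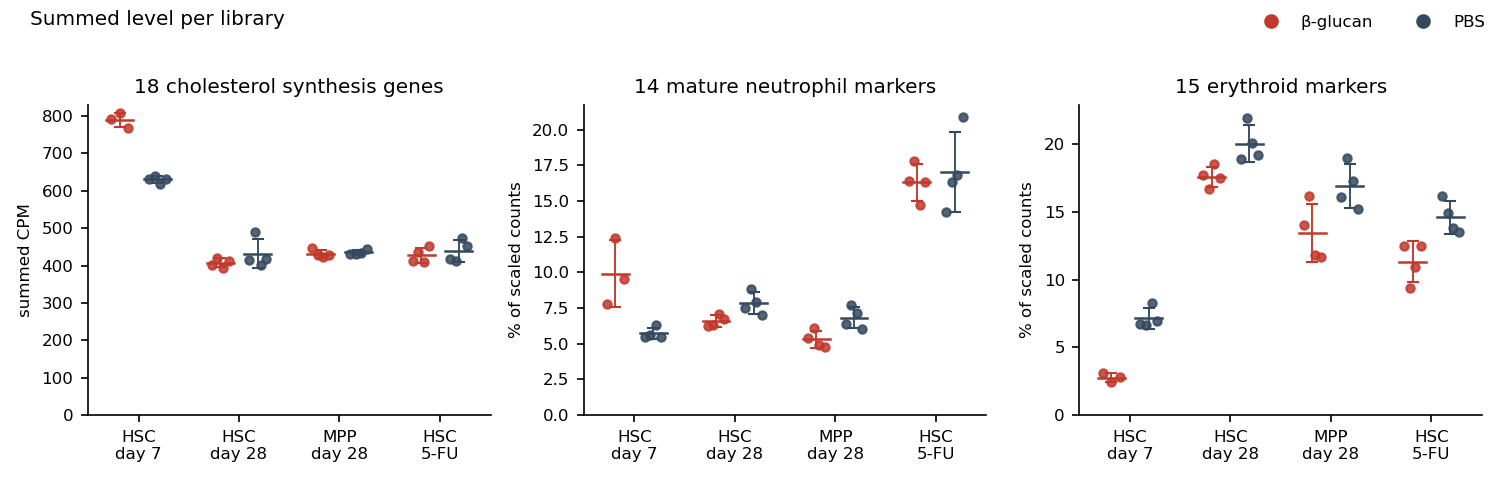
Summed level per library of the 18 synthesis genes in CPM (left) and of neutrophil and erythroid markers as a percent of scaled counts (middle and right), y axes from 0. Points are libraries, red for β-glucan and dark for PBS, with mean and SD. On day 7 the synthesis sum lay at 769.5 to 807.3 CPM in β-glucan HSC and at 618.6 to 639.7 CPM in PBS HSC, and the erythroid share was lower and the neutrophil share higher in β-glucan HSC.

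By day 28, no member was called between HSC from β-glucan and PBS mice, and the synthesis sum was 407.6 ± 12.0 CPM in β-glucan HSC and 431.2 ± 38.9 CPM in PBS HSC (SD, n = 4 each). Of 16025 genes tested with edgeR, 0.0374% were called. Unadjusted p was under 0.05 for 12 of 34 members and for 2729 of the 16025 genes, and the 18 synthesis genes had a median log2 fold change of -0.16, with 8 positive and 10 negative, against -0.015 over all genes. DESeq2 called 2 members (Hsd17b7 and Nr1h2) and 589 genes in all, and with the pair of day 28 libraries that stood apart left out edgeR called 1 member (Soat1) and 669 genes.

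The 3 members of smallest p are given as not called. Hsd17b7, the sterol 3-keto reductase, had 6.91, 7.25, 8.04 and 8.58 CPM in β-glucan HSC, against 9.11, 9.72, 10.6 and 11.7 CPM in PBS HSC (log2 fold change -0.44 ± 0.12 SE, adjusted p = 0.144). Nr1h2, which encodes LXRβ, had 50.2, 54.0, 55.5 and 58.0 CPM in β-glucan HSC, against 41.2, 42.3, 46.3 and 46.8 CPM in PBS HSC (log2 fold change 0.28 ± 0.08 SE, adjusted p = 0.151). Scd1 had 25.6, 25.8, 27.7 and 28.3 CPM in β-glucan HSC, against 29.5, 30.8, 31.5 and 37.8 CPM in PBS HSC (log2 fold change -0.29 ± 0.09 SE, adjusted p = 0.18). The groups did not overlap for these genes, lower in β-glucan for Hsd17b7 and Scd1 and higher for Nr1h2. These 3 were chosen by p, which favours separate groups. Of all 34 members, 1 was higher and 3 were lower in every β-glucan library than in every PBS library. Npc2 was also among those lower, at 258.4 to 271.0 CPM in β-glucan HSC and 284.0 to 339.7 CPM in PBS HSC. Over all genes tested, 4.59% were higher and 4.04% lower in this way, and 8.64% did not overlap. Beyond the 3 of smallest p, the other 31 members ran from -0.36 for Idi1 to 0.43 for Insig1, and none of 49 other pathway genes was called.

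The effect of β-glucan differed between the days for 8 members when the difference itself was tested as a contrast of the 4 HSC groups. Of 17977 genes, 2.24% had an effect called above and 2.58% below that of day 7. For Msmo1 the day 28 effect minus the day 7 effect was -0.82 ± 0.11 on the log2 scale (SE; adjusted p = 0.000614), with own effects of -0.18 on day 28 and 0.61 on day 7. The difference was -0.84 ± 0.17 for Sc5d (adjusted p = 0.00782), -0.80 ± 0.18 for Cyp51 (0.0145) and -0.64 ± 0.13 for Hmgcs1 (0.00914). It was called below 0 also for Hsd17b7 (-0.83), Npc2 (-0.56) and Dhcr7 (-0.47), the enzyme of the last step, although none of these was called on either day by itself. Of these, Hsd17b7 kept the call with 8 of 15 libraries left out in turn, and Hsd17b7 and Dhcr7 were not called without TMM. For Scd1 it was above 0, at 1.27 ± 0.14 (adjusted p = 0.000116), with own effects of -0.29 on day 28 and -1.59 on day 7. All 18 synthesis genes had a difference below 0 (median -0.47, all genes -0.023), but 16 of 18 did on library totals without TMM, where the median of all genes moved by 0.13. On those totals, calls over all genes split as 616 above and 284 below 0, against 403 and 463. Leaving out β-glucan replicate 2 of day 7 left 4 members called (Msmo1, Sc5d, Hmgcs1 and Scd1), and 445 genes in all, against 866. Days and deposited tables are the same split, so time and any handling of its libraries cannot be told apart.

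Mature cell markers followed the same contrast: the effect on 14 of 15 erythroid markers was called above and on 9 of 14 neutrophil markers below that of day 7, and their part in the members' difference was not tested. Of other pathway genes, the day 28 effect minus the day 7 effect was called below 0 for Lamp2 (-0.76), Smpdl3a (-0.77), a phosphodiesterase related to acid sphingomyelinase, and Aacs (-0.46), which activates acetoacetate, and above 0 for Lpcat3 (0.42), a phospholipid-remodelling LXR target.

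In MPP on day 28, none of the 18 synthesis genes was called, and their summed levels were 431.4 ± 10.8 CPM in β-glucan MPP and 435.2 ± 5.82 CPM in PBS MPP (SD, n = 4 each). Npc2 was the only member edgeR called, where 4.63% of 15828 genes were called in either direction. It had 308, 326, 328 and 339 CPM in β-glucan MPP, against 365, 375, 378 and 384 CPM in PBS MPP. All β-glucan libraries were below all PBS libraries (log2 fold change -0.21 ± 0.04 SE, adjusted p = 0.0243). The call depended on the scaling. On library totals without TMM, Npc2 was not called while Scap and Nr1h2 were called higher, and genes called over the whole table split as 744 higher and 124 lower, against 431 and 302. Leaving out any one of β-glucan replicates 3 and 4 or PBS replicates 1, 2 and 3 left no member called, and leaving out β-glucan replicate 1 or 2 left 3 called. Genes called in all were 164 to 337 in the former runs and 940 and 1010 in the latter, against 733.

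The synthesis median in MPP was -0.01 (8 positive, 10 negative), and it was 0.074 without TMM. Scap, the SREBP escort, is given as the next member by p. It had 7.2, 8.28, 8.46 and 10.3 CPM in β-glucan MPP, against 5.92, 6.24, 6.65 and 6.87 CPM in PBS MPP, without overlap and short of the threshold (log2 fold change 0.41 ± 0.11 SE, adjusted p = 0.062). In every β-glucan MPP library, 2 members were above all PBS MPP libraries and 2 below, beside 6.69% and 5.79% of all genes. Of the other pathway genes, none was called lower, and those called higher included the lysosomal protein Scarb2 (log2 fold change 0.51) and the LXR partner Rxrb (0.47). Beside these, 7 of 14 neutrophil markers and 10 of 14 B cell markers were called lower in β-glucan MPP, and their part was not tested.

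The β-glucan effect in MPP was not shown to differ from that in HSC for any member. Of 16691 genes, 0.00599% were called for the effect in MPP minus that in HSC, and 1 member (Cyp51, 0.31 ± 0.14, SE) had an unadjusted p under 0.05, as had 1033 genes in all (6.19%). DESeq2 and voom also called no member. These contrasts use the same 16 libraries as the comparisons within each cell type.

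After 5-FU, no member was called in HSC, and the synthesis sums were 427.2 ± 20.4 CPM in β-glucan HSC and 439.2 ± 29.7 CPM in PBS HSC (SD, n = 4 each). Of 15705 genes, 0.0446% were called by edgeR, DESeq2 called none of the members, and 1 member and 1184 genes in all had an unadjusted p under 0.05. The member was Fdft1, the squalene synthase, with 19.7, 20.2, 21.2 and 21.7 CPM in β-glucan HSC, against 23.3, 24.3, 24.6 and 26.6 CPM in PBS HSC, lower in every β-glucan library (log2 fold change -0.27 ± 0.08 SE, adjusted p = 0.334). No other member was without overlap, and 4.59% of all genes tested did not overlap. In Fdft1, 18.3% of exon bases are overlapped by Ctsb on the opposite strand, and the library kit does not mark strand.

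Next by p came Abca1, with 3.56, 3.58, 4.22 and 4.95 CPM in β-glucan HSC, against 2.56, 2.59, 3.57 and 3.78 CPM in PBS HSC (log2 fold change 0.37 ± 0.19 SE, adjusted p = 0.72), and Tm7sf2, a sterol C14 reductase, with 2.0, 2.34, 2.80 and 3.08 CPM in β-glucan HSC, against 2.52, 3.24, 3.33 and 3.54 CPM in PBS HSC (log2 fold change -0.31 ± 0.19 SE, adjusted p = 0.789). Both overlapped between groups. Scd1 spread widely after 5-FU, from 15.1 to 36.5 CPM in β-glucan HSC and from 11.2 to 42.7 CPM in PBS HSC, with an SE of 0.36 on the log2 scale. The synthesis median was -0.05, with 15 of 18 genes negative, and 9 of 18 negative without TMM. Without PBS replicate 4, the library that stood apart, no member was called either and the synthesis median was -0.023, with 11 of 18 genes negative. By the contrast of those 4 groups, edgeR called no member for the effect after 5-FU minus that on day 28, where 0.106% of 16985 genes were called, and 3 members (Hsd17b7, Tm7sf2 and Npc2) had an unadjusted p under 0.05, as had 1920 genes in all (11.3%). DESeq2 and voom called no member for it either. Drug, time since injection and deposited table differ together in that contrast and cannot be told apart. None of 49 other pathway genes was called.

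Between cell types on day 28, most members called lay outside synthesis. In β-glucan mice 4 members were called higher and 7 lower in MPP than in HSC, and in PBS mice 1 higher and 7 lower. Over all genes, 17.7% of 15945 were called higher and 18% lower in β-glucan mice, and 9.58% of 16122 higher and 12.1% lower in PBS mice. The same 6 members were called in the same direction in both, which is 54.5% of the β-glucan calls and 75.0% of the PBS calls of members, beside 46.2% and 75.2% over all genes (2626 shared calls): Npc2 was higher, and Nr1h2, Scd1, Stard4, Mylip and Insig1 were lower in MPP. These comparisons share no library. In every MPP library of β-glucan mice, 4 members were above all HSC libraries and 7 below, beside 16.8% and 17.3% of all genes. In PBS mice 2 were above and 6 below, beside 13.4% and 12.9% of all genes. Without TMM, calls over all genes split as 3926 higher and 1861 lower in β-glucan mice (2815 and 2863 with TMM), and as 2206 and 1401 in PBS mice (1544 and 1949 with TMM). Insig1, Mylip, Srebf2 and Hsd17b7 were then not called in PBS mice, nor Mylip in β-glucan mice.

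Npc2 had 308, 326, 328 and 339 CPM in MPP, against 258, 264, 269 and 271 CPM in HSC of β-glucan mice (log2 fold change 0.30 ± 0.05 SE, adjusted p = 0.00114). In PBS mice it had 365, 375, 378 and 384 CPM in MPP, against 284, 288, 296 and 339.7 CPM in HSC (log2 fold change 0.30 ± 0.07 SE, adjusted p = 0.00928). MPP and HSC were separate in both treatments. Stard4, a cytosolic sterol carrier, had 13.8, 15.3, 16.1 and 16.4 CPM in MPP, against 19.2, 20.7, 20.8 and 23.2 CPM in HSC of β-glucan mice (log2 fold change -0.44 ± 0.09 SE, adjusted p = 0.00256). In PBS mice it had 13.8, 15.3, 16.4 and 17.0 CPM in MPP, against 18.7, 19.2, 23.1 and 24.4 CPM in HSC (log2 fold change -0.47 ± 0.11 SE, adjusted p = 0.0118). Its levels did not overlap in either. Mylip, whose product marks lipoprotein receptors for degradation, had 9.57, 11.1, 11.7 and 14.3 CPM in MPP, against 13.3, 14.1, 15.8 and 17.2 CPM in HSC of β-glucan mice (log2 fold change -0.36 ± 0.13 SE, adjusted p = 0.0432). In PBS mice it had 10.3, 10.9, 11.8 and 12.6 CPM in MPP, against 13.2, 14.1, 14.9 and 17.0 CPM in HSC (log2 fold change -0.39 ± 0.10 SE, adjusted p = 0.0203). The groups overlapped in β-glucan mice, where the call held with 2 of 8 libraries left out in turn, and did not overlap in PBS mice.

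Among efflux genes, Nr1h2 had 36.2, 39.3, 41.1 and 41.8 CPM in MPP, against 50.2, 54.0, 55.5 and 58.0 CPM in HSC of β-glucan mice (log2 fold change -0.45 ± 0.07 SE, adjusted p = 0.000692), and in PBS mice 30.4, 35.0, 36.1 and 36.7 CPM in MPP, against 41.2, 42.3, 46.3 and 46.8 CPM in HSC (log2 fold change -0.37 ± 0.08 SE, adjusted p = 0.00965). Every MPP library was below every HSC library of its treatment. Abca1 had 3.45, 3.88, 4.01 and 4.77 CPM in MPP, against 5.7, 5.90, 6.65 and 7.10 CPM in HSC of β-glucan mice (log2 fold change -0.65 ± 0.13 SE, adjusted p = 0.00286). It was not called in PBS mice, where 3.72, 4.02, 4.59 and 5.09 CPM in MPP stood against 3.92, 5.41, 6.96 and 7.41 CPM in HSC. Soat1 had 137, 139.6, 139.7 and 166 CPM in MPP, against 168, 189, 206 and 227 CPM in HSC of β-glucan mice (log2 fold change -0.43 ± 0.09 SE, adjusted p = 0.00461). It was also below HSC in all PBS libraries of MPP, without a call (log2 fold change -0.29 ± 0.11 SE, adjusted p = 0.0916). Abcg1 differed by log2 fold changes of -0.18 ± 0.12 in β-glucan mice and -0.05 ± 0.09 in PBS mice (SE), and was not called in either.

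Insig1, which holds SCAP in the endoplasmic reticulum, had 8.13, 8.62, 10.6 and 10.7 CPM in MPP, against 11.3, 15.2, 15.3 and 18.1 CPM in HSC of β-glucan mice (log2 fold change -0.64 ± 0.14 SE, adjusted p = 0.00558). In PBS mice it had 7.37, 7.82, 8.52 and 9.47 CPM in MPP, against 9.05, 11.2, 11.2 and 12.3 CPM in HSC, where 1 pair of libraries crossed (log2 fold change -0.41 ± 0.12 SE, adjusted p = 0.0311). Srebf2 was called in PBS mice, with 26.7, 27.6, 28.0 and 28.1 CPM in MPP, against 26.5, 35.4, 37.4 and 40.8 CPM in HSC (log2 fold change -0.36 ± 0.12 SE, adjusted p = 0.046), and that call was lost when any of 7 of the 8 libraries was left out. All 5 sterol sensing genes had negative log2 fold changes in both treatments. Scd1 had 17.3, 20.4, 20.4 and 21.5 CPM in MPP, against 25.6, 25.8, 27.7 and 28.3 CPM in HSC of β-glucan mice (log2 fold change -0.42 ± 0.08 SE, adjusted p = 0.00236). In PBS mice it had 18.7, 22.6, 23.0 and 23.8 CPM in MPP, against 29.5, 30.8, 31.5 and 37.8 CPM in HSC (log2 fold change -0.57 ± 0.10 SE, adjusted p = 0.0026). MPP lay below HSC throughout.

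The synthesis genes as a group stood close between the cell types, with median log2 fold changes of -0.02 in β-glucan mice and -0.055 in PBS mice, and 0.081 and 0.022 without TMM. In β-glucan mice 3 of the 18 were called higher in MPP, where 17.7% of all genes were. Dhcr7, which makes cholesterol in the last step, had 43.7, 44.4, 45.4 and 47.4 CPM in MPP, against 34, 34.2, 35.0 and 38.3 CPM in HSC (log2 fold change 0.36 ± 0.06 SE, adjusted p = 0.00106). Hmgcs1 had 26.7, 26.9, 27.9 and 31.3 CPM in MPP, against 20.6, 23.1, 23.1 and 23.3 CPM in HSC (log2 fold change 0.33 ± 0.07 SE, adjusted p = 0.00576). Acat2, which joins acetyl-CoA units ahead of HMG-CoA, had 33.5, 33.6, 34.4 and 38.6 CPM in MPP, against 28.3, 29.3, 30.6 and 31.0 CPM in HSC (log2 fold change 0.24 ± 0.07 SE, adjusted p = 0.0165). MPP and HSC were separate for all 3. In PBS mice the 1 synthesis gene called was Hsd17b7, lower in MPP with 7.73, 8.45, 8.53 and 8.57 CPM in MPP, against 9.11, 9.72, 10.6 and 11.7 CPM in HSC (log2 fold change -0.32 ± 0.11 SE, adjusted p = 0.0497), and that call was lost in 7 of 9 alternative settings. Leaving out MPP PBS replicate 1, the library with the HSC tag, left 4 members called in PBS mice, and leaving out MPP PBS replicate 3 or 4 left 5. Leaving out HSC PBS replicate 2 left 12. In the same order, genes called in all were 2004, 2511, 2340 and 5050, against 3493.

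**Figure D5:**
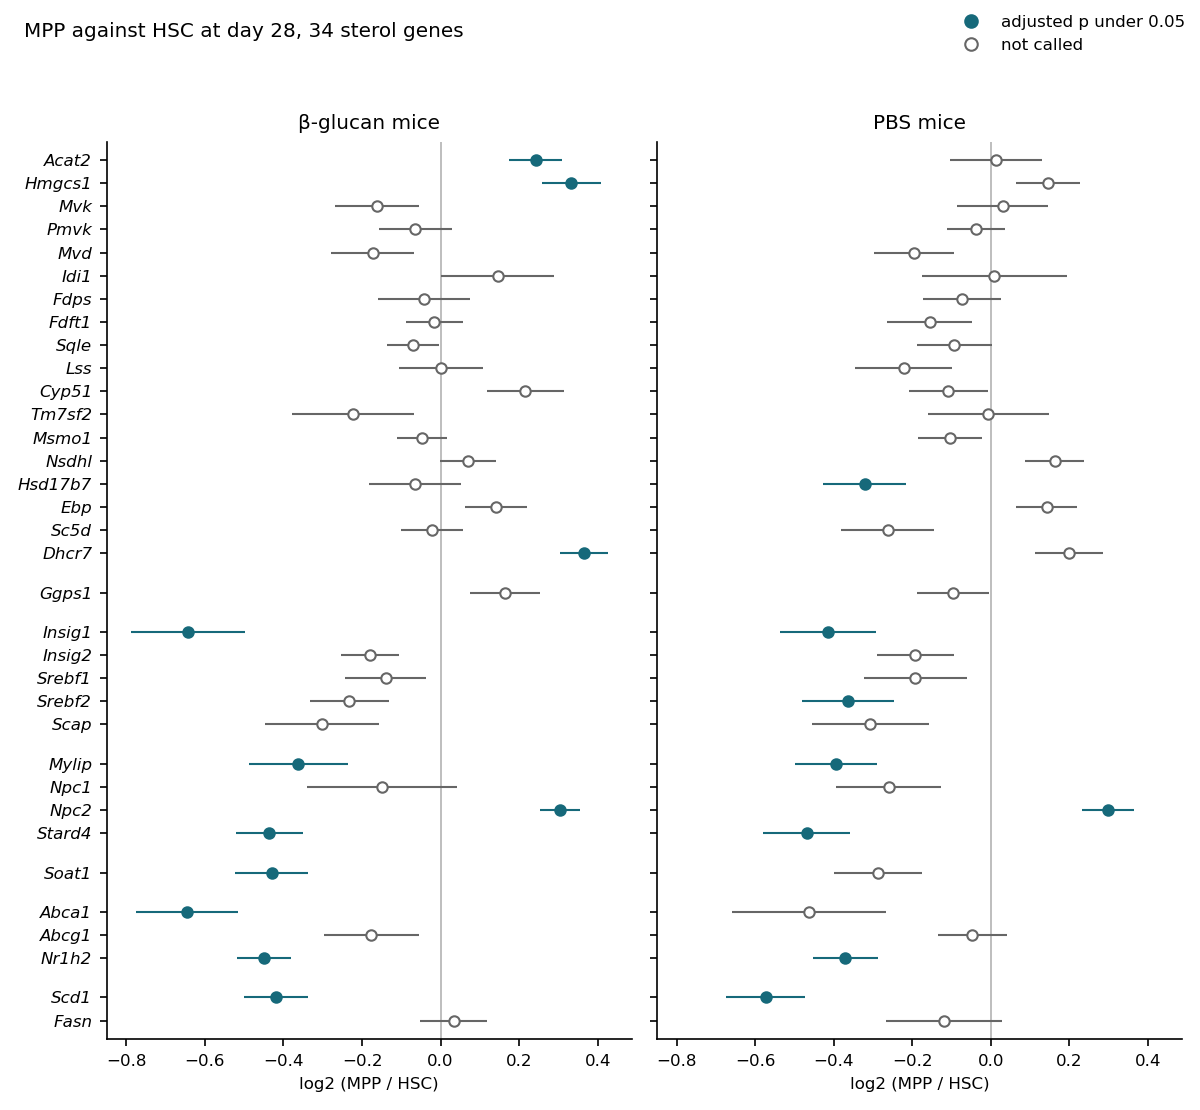
Log2 fold change of MPP over HSC on day 28 (x axis, bars are SE) for the 34 members, in β-glucan mice (left) and PBS mice (right), grouped by role. Filled points were called, and the same 6 members are filled on the same side in both panels.

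Of 49 other pathway genes, 10 were called higher and 9 lower in MPP of β-glucan mice, and 4 higher and 11 lower in MPP of PBS mice. By smallest p the higher ones included Elovl6, a fatty acid elongase (log2 fold change 0.89 in β-glucan and 0.63 in PBS mice), and Pltp, a phospholipid transfer protein and LXR target (0.75 and 0.67). Vldlr, a lipoprotein receptor (1.02 and 0.71), and Tmem97 (0.42 and 0.42) were also called higher in both treatments. The lower ones included Rnf139, a sterol-sensing ubiquitin ligase (-0.56 in β-glucan and -0.53 in PBS mice), Abca7, a lipid transporter (-0.70 and -0.60), and Lpcat3 (-0.30 and -0.24). Acss2, an acetyl-CoA synthetase, was called lower in PBS mice only (-1.20). Erythroid markers summed to 11.7 to 16.2% in MPP and 16.7 to 18.5% in HSC of β-glucan mice, and 15.2 to 19.0% in MPP and 18.9 to 21.9% in HSC of PBS mice, with 13 and 11 of 15 markers called lower in MPP. Megakaryocyte markers were called lower in MPP for 8 of 9 in β-glucan mice and 7 of 8 in PBS mice. All 14 neutrophil markers had negative log2 fold changes in both, with 9 called lower in β-glucan mice and 4 in PBS mice, and of 14 B cell markers 4 were called higher in β-glucan mice, and 7 higher and 1 lower in PBS mice. The part of these cell types in these differences was not tested.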

How the data were processed

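RNA was extracted from sorted cells with the RNeasy Plus Micro kit and amplified with the SMARTer Ultra kit, which does not mark strand, per the labels' protocols. The deposited values are raw read counts per gene, made by the authors with featureCounts on mm10 after bcl2fastq 1.8.4, per the submitters' processing notes (aligner: not given in the sources used here). The 3 deposited tables (7, 16 and 8 libraries) name columns by cell type, treatment letter and replicate only, so P and G were read as PBS and β-glucan, and each table's day was taken from its number of columns and the presence of MPP. Of 45706 identifiers, 45143 were paired with a symbol through a GENCODE table, and some genes of the pathway are not reported here.

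Each comparison was fitted on its own groups with edgeR 4.0.16 (R 4.3.3): filterByExpr removed low genes (minimum count 10), totals were scaled by TMM, and the quasi-likelihood test was adjusted by Benjamini-Hochberg over all genes tested, with 0.05 as the threshold. The SE was recovered from each log2 fold change and its F statistic (absolute change over root F). A difference of effects is a contrast of 4 groups in 1 fit. Fits were tested on simulated data. Alternatives were DESeq2 1.42.0, limma 3.58.1 (voom with quality weights), other scalings and filters, all 8 groups in 1 fit, a replicate block and each library left out. No 2 libraries of a group agreed within sampling noise (45 pairs, chi-square per gene of 6.75 to 50.3), and no replicate was merged.

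The members, the other pathway genes and the marker lists were chosen with earlier results of these data known. The text names the members called in each comparison, or up to 3 of smallest p where none was called, and up to 3 other pathway genes per direction. It also gives values of some uncalled members beside called ones, and those of day 7 were chosen after their values were seen. Totals of 19331663 to 39485556 counts per library leave counting error small for most members, and reads carry no molecular identifiers. Promoter sequences are RefSeq's, on GRCm38.p6.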

Additional observations from a re-analysis of the deposited data

Results flagged for a closer look

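The effect of β-glucan in HSC differed between day 28 and day 7 for 8 members by the contrast of the 4 groups. The day 28 effect minus the day 7 effect was -0.84 for Sc5d, -0.83 for Hsd17b7, -0.82 for Msmo1, -0.80 for Cyp51, -0.64 for Hmgcs1, -0.56 for Npc2, -0.47 for Dhcr7 and 1.27 for Scd1 on the log2 scale, with edgeR adjusted p between 0.000116 and 0.0319.

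Over the 18 members called in any comparison, 126 groups of 4 libraries were screened for a library far from the rest. The rule's nominal chance rate is about 1 in 20, not measured here, and 9 groups had such a library. Soat1, the cholesterol esterifying enzyme, had 3 of them: HSC PBS day 28 replicate 2 at 227 CPM (others 155 to 165), MPP β-glucan replicate 1 at 166 CPM (others 137 to 140) and MPP PBS replicate 1 at 130 CPM (others 150 to 152). The first is a library that stood apart over all genes, and the last carries the HSC tag. After 5-FU, Sqle was high in β-glucan replicate 4 at 24.0 CPM (others 15.6 to 16.7), Cyp51 was low in β-glucan replicate 1 at 13 CPM (others 16.5 to 16.9), and Dhcr7 was high in PBS replicate 3 at 43.1 CPM (others 33.8 to 35.2). On day 28, Hmgcs1 was low in HSC β-glucan replicate 4 at 20.6 CPM (others 23.1 to 23.3) and Hsd17b7 was low in MPP PBS replicate 4 at 7.73 CPM (others 8.45 to 8.57). On day 7, Abca1 was low in HSC PBS replicate 1 at 6.18 CPM (others 9.0 to 9.4), and all 3 β-glucan libraries remained below it.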

How the results depend on the processing

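No called member changed direction under any alternative run, while synthesis medians near 0 changed sign as given here. On day 7, 7 members were called, against 12 with DESeq2, 11 with voom, 14 with all 8 groups in 1 fit, 6 without TMM (Hmgcs1 and Sqle lost, Soat1 gained) and 3 to 9 with a library left out. Over all genes, 1102 were called, against 1711 with DESeq2, 1744 with voom and 1971 with all 8 groups. Without TMM 1136 genes were called, and 500 to 1252 with a library left out. In HSC on day 28, 0 members were called (0 to 0 with a library left out), against 2 with DESeq2 and 1 with all 8 groups in 1 fit. Without the pair of libraries that stood apart, a setting chosen after seeing the data, 1 was called and the synthesis median was -0.061. Genes called in all were 6 there, against 589 with DESeq2, 525 with all 8 groups and 669 without that pair. In MPP, 1 member was called, against 2 without TMM, 3 without a filter, 3 with DESeq2, 0 with all 8 groups and 0 to 3 with a library left out, and the synthesis median was 0.074 without TMM and -0.045 to 0.024 with a library left out. Genes called in all in MPP were 733, against 868 without TMM, 1181 without a filter and 1302 with DESeq2. With all 8 groups 228 genes were called, and 164 to 1010 with a library left out. Between MPP and HSC, PBS mice had 8 members called, against 5 with all 8 groups and 4 to 12 with a library left out, and the β-glucan synthesis median was 0.081 without TMM. PBS mice had 3493 genes called in all, against 3373 with all 8 groups and 2004 to 5050 with a library left out. For the day 28 effect minus the day 7 effect, 4 to 10 members were called with a library left out, and the synthesis median was -0.334 without TMM. That contrast had 866 genes called in all, and 445 to 1051 with a library left out. The synthesis median for the MPP effect minus the HSC effect was 0.006 to 0.121 with a library left out. Where not shown by the setting itself, the cause was not tested.

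Replicate numbers were not taken to pair the samples, since the labels give no shared source. Correlations of same-numbered libraries ran from -0.076 to 0.179 over the comparisons, which does not decide whether samples were paired. With the number as a replicate block, 4 members were called on day 7 (Hmgcs1, Sqle and Cyp51 lost), 2 in MPP (Fasn gained), 7 between MPP and HSC of PBS mice (Hsd17b7 lost) and 6 for the day 28 effect minus the day 7 effect (Dhcr7 and Npc2 lost). In the same order, genes called in all were 645, 915, 3516 and 711, against 1102, 733, 3493 and 866 without the block. Between MPP and HSC of β-glucan mice, where correlations were 0.0926 to 0.179 and every library correlated best with its own number, a hint from the data and not the design, 13 were called, against 11 (Ebp and Srebf2 gained), and 6706 genes, against 5678. Of all counts of calls and synthesis medians under the alternatives, 35 moved, counts by over 1.5 times or medians by at least 1 SD of the libraries' mean log2 level of synthesis genes, and 325 did not. Of the single members' values, 89 lost and 68 gained a call, 20 uncalled ones changed sign by at least 1 SE, and 5921 did none of these. Depth limits most the members of lowest CPM, among them Idi1, Tm7sf2, Abca1 and, on day 7, Fdps at 3.07 to 4.74 CPM.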
